A study of Mus musculus with 4 samples.

Results

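The mRNAs of the cytosolic ribosomal proteins were compared in bone marrow derived macrophages (BMMs) cultured with the osteoclast cytokine RANKL together with either dimethyl itaconate (DI), a cell-permeable ester of itaconate, or its vehicle DMSO. Members were chosen by name: symbols that start with Rpl or Rps followed by a digit, Rpsa, and Rplp0, Rplp1 and Rplp2. Of 119 genes whose names have the form of a ribosomal protein, 21 pseudogenes with "-ps" in the symbol and 10 ribosomal S6 kinases, which share only the prefix, were left out, so that 88 members of the 34745 genes in the deposited table remained. The 88 comprised 31 proteins of the small (40S) subunit, 43 of the large (60S) subunit, 3 of the P-stalk, 9 paralogues and 2 other genes that the names take in (Rps19bp1 and Rpl37rt). All 77 core proteins listed for both subunits and the stalk were in the table.

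The cells were wild-type BMMs of 8-week-old male C57BL/6 mice. They were kept for 12 h without FBS and then given complete medium with RANKL at 100 ng/mL for 24 h, with DI in one group (RANKL+DI) and DMSO in the other (RANKL+DMSO), so that both groups received RANKL and neither was left without it. The sample labels give the dose of DI as 20 mM, whereas the methods of the study give 20 μM, and this difference could not be settled from the data. There were 2 libraries in each group, made from mRNA and sequenced from both ends. The labels do not say whether the 2 libraries of a group came from separate mice or cultures. The study describes its cell experiments in general as independently repeated, without saying so of these libraries. The p-values therefore measure only the spread between these libraries, which may be technical.

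The cytosolic ribosome joins a small subunit, which reads the mRNA, to a large subunit, which forms the peptide bond. Each core protein is usually present once per ribosome, with the P-stalk proteins Rplp1 and Rplp2 as the known exception, and the mRNAs of these proteins are among the most abundant of a cell. Most of them are TOP mRNAs, which begin with a C followed by a run of pyrimidines, and their translation is controlled together through mTORC1 and the RNA-binding protein LARP1. Macrophages that turn into osteoclasts enlarge and make large amounts of protein, and mouse ribosomal protein genes have left many processed pseudogenes in the genome, which matters for how reads are assigned.

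The start sites are shown because a TOP run at the start of the mRNA is the feature by which TOP mRNAs are defined. The RefSeq promoter table (GRCm38.p6) held 79 starts of 67 members, 10 of them among the 14 members that were lower with RANKL+DI (below). Each line gives 15 bases before and 15 bases after a start, 5′ to 3′ on the strand of the gene, with the longest unbroken run of C and T in capitals. A run was taken wherever it lay in the window, so it need not be a TOP run. Those of Rpl4 and Rps15a lie wholly before the listed start, outside an mRNA that begins there. The first 4 belong to members that were lower with a long run, the next 3 to members that were lower without one, and the last 3 to members with a long run that did not pass the test.
Rpl13a (chr7:45128731-45128760, minus strand): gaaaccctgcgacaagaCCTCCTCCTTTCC
Rpl14 (chr9:120571502-120571531, plus strand): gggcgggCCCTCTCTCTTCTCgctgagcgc
Rpl4 (chr9:64173372-64173401, plus strand): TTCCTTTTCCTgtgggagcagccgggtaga
Rps15a (chr7:118116133-118116162, minus strand): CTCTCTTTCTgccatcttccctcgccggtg
Rps7 (chr12:28635939-28635968, minus strand): gCTTCCggtttccacccacctacttccgct
Rpl5 (chr5:107900513-107900542, plus strand): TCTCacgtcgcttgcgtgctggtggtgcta
Rps3a1 (chr3:86142654-86142683, minus strand): TTaaagccggaagggcgaaagagcaagggt
Rpl7a (chr2:26910792-26910821, plus strand): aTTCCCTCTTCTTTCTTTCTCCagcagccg
Rplp2 (chr7:141447636-141447665, plus strand): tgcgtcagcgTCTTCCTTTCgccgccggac
Rps6 (chr4:86857353-86857382, minus strand): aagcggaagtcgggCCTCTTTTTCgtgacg

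A run of at least 7 pyrimidines lay within these 30 bases in 44.3% of the 79 starts of members and in 18.6% of all 32851 starts in the table. The share was 45.5% of 11 starts of members that were lower with RANKL+DI and 44.1% of the 68 starts of the other members, so these shares were close. In the 300 bases from 250 before to 50 after a start, the letters CCGGAAG (an ETS-type motif, either strand) were found in 34.2% of starts of members and 8.86% of all starts, and AAGATGGC (a YY1-type motif, either strand) in 10.1% and 2.75%. The last 3 letters of the first motif are the first 3 of the second, so that one stretch can hold both. These matches are descriptions of letters and not of bound sites.

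Near-identical copies are shown because they decide which gene a read is counted for. In GENCODE M21 transcripts (GRCm38), 492 genes were found whose transcripts matched the mRNA of a member at 95% identity or more over at least 50% of its length, and 48 of them had a row in the deposited table. Each pair of lines gives 30 coding bases of a member and the same stretch of its copy, 5′ to 3′, with the base that differs in capitals.
Rps7 (chr12:28635615-28635644, minus strand): cgagcgccaagatcgTgaagcccaatggcg
Gm6472 (within chrX:152909505-152910155, minus strand): cgagcgccaagatcgGgaagcccaatggcg
Rpl23a (chr11:78182882-78182911, minus strand): gccacaaaaagaagaAgatccgaacgtcac
Rpl23a-ps3 (within chr14:34170655-34171122, plus strand): gccacaaaaagaagaTgatccgaacgtcac
With positions counted from 1 at the 5′ end of the member's annotated transcript, these differences are T229G in Rps7 and A157T in Rpl23a. Over the aligned stretch, Gm6472 differed from Rps7 at 3 of 629 bases and Rpl23a-ps3 from Rpl23a at 1 of 468. Gm10275 had no difference from Rpl12 over 634 bases, so no read inside that stretch can tell the pair apart.

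The libraries held 16085692 to 19403480 counts, and 3 counts, the floor used here, corresponded to 0.160 to 0.180 CPM (read counts scaled to a common library size with TMM factors), a limit that covers counting error only. The 12 macrophage markers were all detected, and their summed level was 32950 and 33760 CPM at its lowest and highest with RANKL+DI against 26090 and 26910 CPM with RANKL+DMSO. Of them, 6 were higher and 2 lower with RANKL+DI, among them Itgam at a log2 fold change of 0.57 and Cd14 at −0.51. Lyz2 alone carried most of the summed level, at 22772 and 23786 CPM with RANKL+DI and 18289 and 17630 CPM with RANKL+DMSO. Most of the difference in the macrophage sum was thus that of Lyz2. Markers of other cells were near 0 by comparison. The summed level per library was 0.430 to 0.841 CPM over all libraries for 7 B cell genes, 1.97 to 3.002 for 9 T and NK cell genes, 9.23 to 11.4 for 9 neutrophil genes, 0.373 to 1.28 for 6 mast cell and basophil genes, 0.160 to 0.268 for 8 erythroid genes, 41.6 to 51.7 for 9 stromal genes and 1.26 to 1.92 for 7 dendritic cell genes. Pax5, Cd3e, Ly6g, Mcpt8, Hba-a1, Lepr and Siglech were listed at 0 in every library, while Col1a1 (317 to 385 counts) carried much of the stromal sum. The part of the shift in macrophage markers in the results on ribosomal proteins was not tested. Mitochondrially encoded mRNAs took 2.75% to 2.99% of counts.

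Ribosomal protein mRNAs were slightly lower with RANKL+DI, with a wide spread among members. Of 85 members tested by edgeR's quasi-likelihood test, 14 were lower at a Benjamini-Hochberg adjusted p under 0.05 and 0 were higher. In both directions together that was 16.5% of the tested members, beside 14.8% of all 12590 tested genes. By direction, 7.70% of all tested genes were lower and 7.14% higher. At an unadjusted p under 0.05, 27 members were lower and 6 higher, and the DESeq2 Wald test and limma-voom each called 14 members lower and 0 higher. The count of calls was thus near that of other genes, and the direction was the uneven part.

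The members differed in direction as well as in size. The log2 fold change was below 0 in 56 tested members and above 0 in 29, with a median of −0.063 (quartiles −0.23 and 0.045) beside 0.0012 over all tested genes. It ran from −0.55 for Rpl3 to 0.55 for Rpl36, the latter not past the test. Both RANKL+DI libraries lay below both RANKL+DMSO libraries in 40 members and above them in 9, which was 47.1% and 10.6% of the tested members, beside 29.6% and 29.0% of all tested genes and 58.6% of genes in either direction. With each group at 2 libraries, an exact permutation test of a single value cannot give a two-sided p below 0.333.

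The summed level moved little. The 88 members together gave 12243 and 12498 CPM in the RANKL+DI libraries and 13332 and 12913 CPM in the RANKL+DMSO libraries, a log2 ratio of −0.085 against a standard deviation of 0.027 between libraries of a group. Both RANKL+DI sums lay below both RANKL+DMSO sums. As a share of all counts, before TMM scaling, members took 1.18% and 1.21% with RANKL+DI and 1.38% and 1.34% with RANKL+DMSO. In bulk RNA, fewer cells with high ribosomal protein mRNA and less of that mRNA per cell cannot be told apart.

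**Figure D1:**
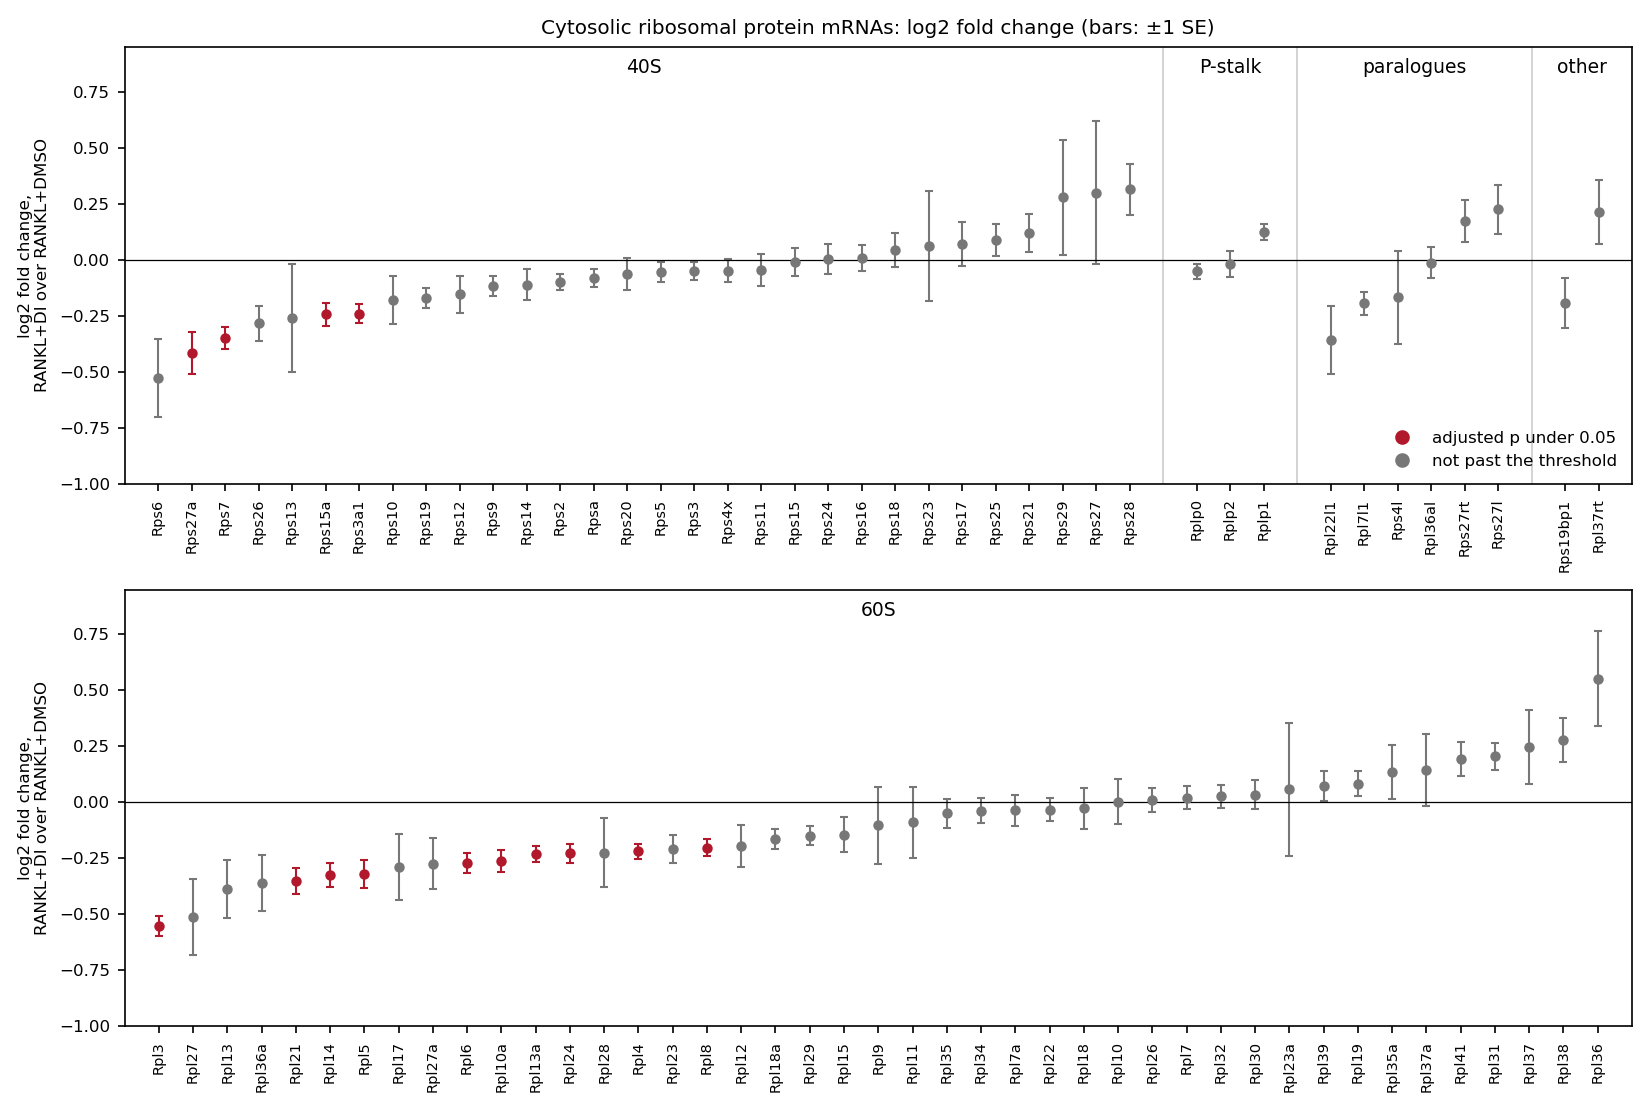
Log2 fold change of the tested ribosomal protein mRNAs that are reported here, RANKL+DI over RANKL+DMSO, on the vertical axis, with the genes of each class in rising order along the horizontal axis. Points are fitted values from 2 libraries a group, bars are ±1 SE, and red marks the 14 members with an adjusted p under 0.05, all of which lie below 0.

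Of 31 proteins of the 40S subunit, 4 were lower (12.9%) and 0 higher by edgeR's test, beside 7.70% and 7.14% of all tested genes. The median log2 fold change was −0.063, with 1 higher and 10 lower at an unadjusted p under 0.05. Rps27a, which is made as a fusion to ubiquitin and so feeds both the ribosome and the ubiquitin pool, gave 38.7 and 34.2 CPM with RANKL+DI and 46.0 and 51.3 CPM with RANKL+DMSO, a log2 fold change of −0.42 (SE 0.093, adjusted p = 0.035). Rps7, a protein of early small-subunit assembly, gave 98.2 and 95.9 CPM against 126 and 121 CPM, a log2 fold change of −0.35 (SE 0.048, adjusted p = 0.0077). The values of Rps27a spread more within each group than those of Rps7, and in neither gene did the groups overlap.

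Rps15a, a core protein of the 40S subunit, was measured at 228 and 230 CPM with RANKL+DI and at 282 and 259 CPM with RANKL+DMSO (log2 fold change −0.24, SE 0.051, edgeR adjusted p = 0.029). Rps3a1, which sits near the exit of the mRNA channel, was measured at 246 and 235 CPM against 287 and 281 CPM (log2 fold change −0.24, SE 0.042, edgeR adjusted p = 0.017). Both differences were about as large, and the groups did not overlap in either gene.

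Rps6, the substrate that gives the S6 kinases their name, had the lowest fitted value of the 40S genes but did not pass the test. Its levels were 5.53 and 4.69 CPM with RANKL+DI and 6.60 and 8.17 CPM with RANKL+DMSO (log2 fold change −0.53, SE 0.17, edgeR adjusted p = 0.10), from 88 to 136 counts per library. Rps19, the protein most often mutated in Diamond-Blackfan anaemia, gave 104 and 103 CPM against 115 and 118 CPM (log2 fold change −0.17, SE 0.045, edgeR adjusted p = 0.059). The groups of both genes were separate but the differences stayed short of the threshold. At the other end of the 40S genes, Rps28 had 29.7 and 35.7 CPM with RANKL+DI and 27.9 and 24.7 CPM with RANKL+DMSO (log2 fold change 0.31, SE 0.12, edgeR adjusted p = 0.13), a gene named here after its values were seen.

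Of 43 proteins of the 60S subunit, 10 were lower (23.3%) and 0 higher by edgeR's test, beside 7.70% and 7.14% of all tested genes. The median log2 fold change was −0.10, with 4 higher and 16 lower at an unadjusted p under 0.05. Whether the shares of the 40S and 60S subunits differ was not tested. Rpl3, which reaches toward the peptidyl transferase centre and enters the large subunit early, was the member with the lowest log2 fold change and the smallest p. It gave 97.9 and 102 CPM with RANKL+DI and 147 and 147 CPM with RANKL+DMSO, a log2 fold change of −0.55 (SE 0.046, edgeR adjusted p = 0.0019). The gap between the groups was far wider than the spread within them.

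Rpl21 gave 92.1 and 85.8 CPM with RANKL+DI and 112 and 115 CPM with RANKL+DMSO (log2 fold change −0.35, SE 0.056, edgeR adjusted p = 0.013). Rpl14 gave 70.9 and 68.3 CPM against 87.4 and 86.9 CPM (log2 fold change −0.32, SE 0.054, edgeR adjusted p = 0.014). Rpl6 gave 269 and 253 CPM against 317 and 312 CPM (log2 fold change −0.27, SE 0.045, edgeR adjusted p = 0.014). These are structural proteins of the 60S subunit, and in all 3 both RANKL+DI libraries lay under both RANKL+DMSO libraries.

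Rpl5 and Rpl11 carry the 5S rRNA into the large subunit and, when free of the ribosome, bind the p53 ligase MDM2. Rpl5 was lower, with 33.3 and 33.8 CPM with RANKL+DI and 41.7 and 42.0 CPM with RANKL+DMSO (log2 fold change −0.32, SE 0.063, edgeR adjusted p = 0.023). Rpl11 gave 4.66 and 4.85 CPM against 5.37 and 4.74 CPM (log2 fold change −0.089, SE 0.16, edgeR adjusted p = 0.75), with overlapping groups and 79 to 100 counts per library. Exons of Rpl5 share 953 bases (24.3% of its exon length) with Fam69a on the opposite strand, and the sources used here do not say whether counting used strand.

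Rpl10a, a protein of the L1 stalk through which spent tRNA leaves, gave 84.5 and 84.7 CPM with RANKL+DI and 103 and 99.6 CPM with RANKL+DMSO (log2 fold change −0.26, SE 0.050, edgeR adjusted p = 0.022). Rpl13a, which also has a role off the ribosome in translational silencing of inflammatory mRNAs in interferon-treated myeloid cells, gave 326 and 325 CPM against 385 and 379 CPM (log2 fold change −0.23, SE 0.035, edgeR adjusted p = 0.011). Rpl24, which forms a bridge to the small subunit, gave 138 and 133 CPM against 156 and 161 CPM (log2 fold change −0.23, SE 0.044, edgeR adjusted p = 0.023). The 3 genes moved by similar amounts, and none had overlapping groups. Exons of Rpl24 share 484 bases (47.0% of its exon length) with Gm28037 on the same strand. Those of Rpl13a share 621 bases (29.4%) with Gm45713, also on the same strand.

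Rpl4, whose long loop lines the exit tunnel of the nascent chain, gave 831 and 848 CPM with RANKL+DI and 988 and 964 CPM with RANKL+DMSO (log2 fold change −0.22, SE 0.034, edgeR adjusted p = 0.011). Rpl8, which lies close to the peptidyl transferase centre, gave 477 and 470 CPM against 558 and 531 CPM (log2 fold change −0.20, SE 0.040, edgeR adjusted p = 0.023), the smallest change among the 14. Over the 14 genes, the 28 values of the RANKL+DI libraries lay between 66.7% and 87.6% of the gene's mean in the RANKL+DMSO libraries, while the RANKL+DMSO values lay between 94.6% and 105%.

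**Figure D2:**
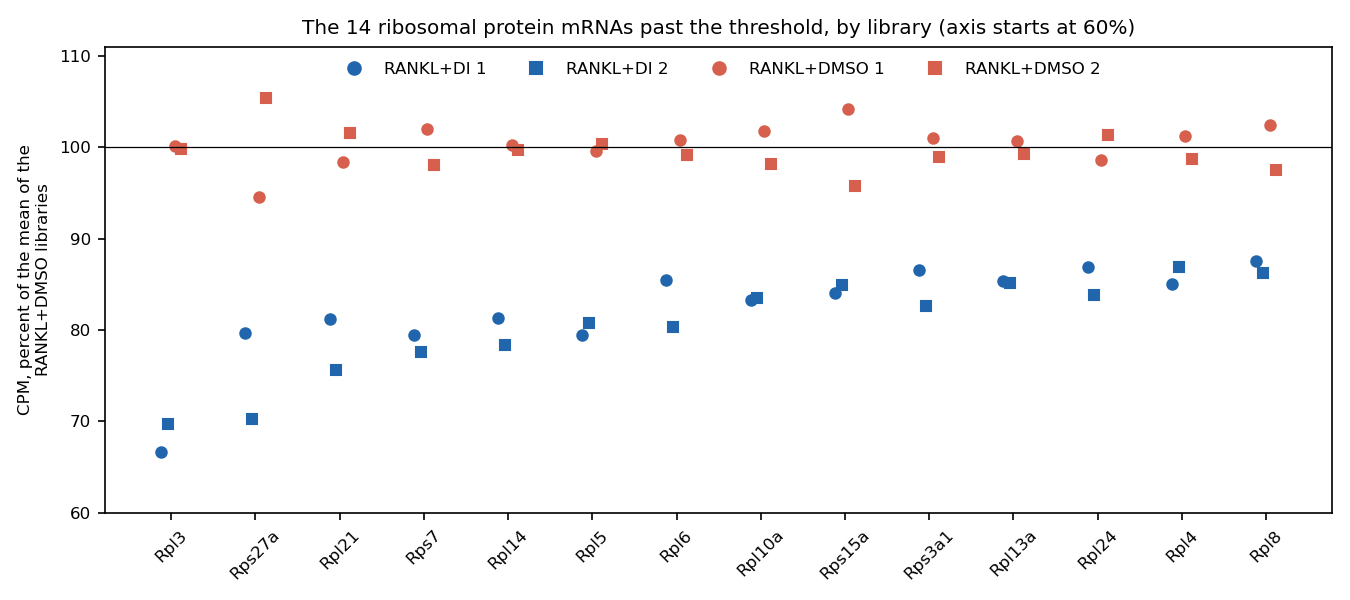
Level of the 14 ribosomal protein mRNAs past the threshold in each of the 4 libraries, as a percentage of the gene's mean CPM in the RANKL+DMSO libraries (vertical axis, starting at 60%), with genes ordered by log2 fold change. The RANKL+DI points (blue) sit between 66.7% and 87.6% and do not overlap the RANKL+DMSO points (orange) in any gene.

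Several 60S genes had fitted values above 0 without passing the test, and were named after their values were seen. Rpl36 had the highest log2 fold change of all members (0.55, SE 0.21, edgeR adjusted p = 0.15), at 3.85 and 3.31 CPM with RANKL+DI and 2.63 and 2.22 CPM with RANKL+DMSO, from 37 to 66 counts. Rpl41, the shortest ribosomal protein, gave 270 and 306 CPM against 264 and 239 CPM (log2 fold change 0.20, SE 0.076, edgeR adjusted p = 0.15). Rpl38, known from skeletal patterning in the mouse, gave 28.3 and 32.1 CPM against 26.2 and 23.5 CPM (log2 fold change 0.28, SE 0.099, edgeR adjusted p = 0.12). Their groups did not overlap, with RANKL+DI the higher, as was also so for Rpl31 (log2 fold change 0.21, edgeR adjusted p = 0.079).

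The P-stalk recruits the elongation factors that drive each round of translation, and Rplp0 anchors pairs of Rplp1 and Rplp2 to the large subunit. None of the 3 passed edgeR's test (1 higher and 0 lower at an unadjusted p under 0.05, and 0 by DESeq2 or limma-voom). Rplp0 gave 890 and 896 CPM with RANKL+DI and 937 and 912 CPM with RANKL+DMSO (log2 fold change −0.051, SE 0.033, edgeR adjusted p = 0.37). Rplp1 gave 521 and 539 CPM against 491 and 482 CPM (log2 fold change 0.12, SE 0.037, edgeR adjusted p = 0.081). Rplp2 gave 179 and 176 CPM against 189 and 171 CPM (log2 fold change −0.017, SE 0.058, edgeR adjusted p = 0.88). The groups were separate in opposite directions for Rplp0 and Rplp1 and overlapped for Rplp2.

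Paralogues can replace a core protein in some tissues or conditions. Of the 9 in the table, 6 had enough counts to be tested, and 0 passed edgeR's test in either direction (0 higher and 1 lower at an unadjusted p under 0.05, and 0 by DESeq2 or limma-voom). Rpl22l1 gave 6.70 and 5.76 CPM with RANKL+DI and 7.46 and 8.53 CPM with RANKL+DMSO (log2 fold change −0.36, SE 0.15, edgeR adjusted p = 0.18), beside −0.032 (SE 0.051) for its partner Rpl22. Rpl7l1, a relative of Rpl7 that acts in large-subunit assembly, gave 121 and 114 CPM against 135 and 134 CPM (log2 fold change −0.19, SE 0.050, edgeR adjusted p = 0.054), beside 0.022 (SE 0.050) for Rpl7. The differences between partners were not tested.

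Rps27l, a p53 target in many cells, gave 97.5 and 113 CPM with RANKL+DI and 98.1 and 81.8 CPM with RANKL+DMSO (log2 fold change 0.23, SE 0.11, edgeR adjusted p = 0.23). Its partner Rps27 was counted at only 28, 22, 22 and 18 reads (log2 fold change 0.30, SE 0.32), whereas Rps27rt, a retrotransposed copy of Rps27 that is itself a member, was counted at 2068, 2605, 2290 and 1782 reads. Rpl36al (log2 fold change −0.013, SE 0.069) and Rpl36a (−0.36, SE 0.12, edgeR adjusted p = 0.11) form another pair, as do Rps4l (−0.17, SE 0.21) and Rps4x (−0.048, SE 0.052). None of these 7 genes passed the test.

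Germ-line and muscle paralogues were at or near the floor of 3 counts. Rpl10l, a testis gene, had a single read in 1 library, and Rpl3l, a gene of heart and skeletal muscle, had 2, 1, 0 and 0 reads, so no fold is given for either. Rpl39l had 3 and 9 reads with RANKL+DI and 7 and 10 with RANKL+DMSO, and all 3 were too low to be tested. Their partners were well detected, with Rpl10 at 34.7 to 41.6 CPM (log2 fold change 0.0037, SE 0.10), Rpl39 at 46.3 to 51.0 CPM (log2 fold change 0.074, SE 0.068) and Rpl3 as above. Of the 2 other genes taken in by name, Rps19bp1 had a log2 fold change of −0.19 (SE 0.11, edgeR adjusted p = 0.30) and Rpl37rt of 0.21 (SE 0.14, edgeR adjusted p = 0.38).

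Levels per length spread over a wide range among proteins that the ribosome holds in near-equal number. The authors' FPKM, averaged over the 4 libraries, ran from 0.320 to 1025 over the 77 core genes, with a median of 29.8 and 22 genes under 10. Rplp1 had the highest FPKM, at 1013 and 1053 with RANKL+DI and 1029 and 1007 with RANKL+DMSO. Rpl4 (562, 577, 720 and 702 FPKM in the same order) and Rpl8 (532, 527, 671 and 638 FPKM) followed, with Rpl4 above Rpl8 in each library.

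The lowest FPKM belonged to genes that every ribosome needs. Rps13 was at 0.308, 0.253, 0.406 and 0.312 FPKM, Rpl9 at 0.380, 0.396, 0.489 and 0.404 FPKM and Rps27 at 0.543, 0.392, 0.423 and 0.387 FPKM, and these 3 overlapped one another. The length that the FPKM values imply was larger than the mRNA with the longest coding sequence, by a median of 3.27 times and up to 18.5 times over 86 members, so that FPKM understates many of them. CPM per kilobase of that mRNA was used in place of FPKM as a scale added after the data were seen. On it the core genes ran from 2.52 (Rps23) to 1019 (Rplp1), and 12 of 77 were under 10. The order at the top also changed, with Rplp0 (669) after Rplp1 and Rpl8 (598) above Rpl4 (590). Rps23 had 2 near-identical copies, of which 1 had a row in the table. Rps23 had 42.3 reads on average and that copy 2, or 4.52% of their joint reads. Rps13 had 5 such copies and none had a row, so reads on them cannot be seen here. The part of copies in the low levels was not tested.

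Pseudogene copies carried more reads than the protein-coding gene in 8 of the 24 members with such a copy in the table. Rpl12 had 335, 372, 397 and 396 reads (RANKL+DI 1 and 2, then RANKL+DMSO 1 and 2), while its copy Gm10275 had 5543, 5894, 6942 and 6302. Rpl23a had 27, 25, 23 and 26 reads and its copy 2388, 2795, 2922 and 2490. Rpl9 had 71 to 96 reads beside 2486 to 2931 in its copy, Rpl11 had 79 to 100 beside 2155 to 2735 in its 2 copies, and Rpl27 had 161 to 274 beside 1809 to 2046. In these libraries the symbol of a member therefore stood for only part of the reads of its sequence.

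Adding the reads of 32 pseudogene copies to their members kept all 14 calls and gave 2 more, both lower with RANKL+DI. Rpl12 was among them and then had a log2 fold change of −0.23 (edgeR adjusted p = 0.013) in place of −0.20 (adjusted p = 0.23) alone. For Rps7, whose copies Gm6472 and Gm9493 hold 69.2% of the joint reads, the sum gave −0.29 (edgeR adjusted p = 0.0083). The reads of copies of Rpl9 and Rpl23a left those genes at −0.011 and −0.086 with no call. How the authors' counting treated reads that match several genes is not given in the sources used here.

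**Figure D3:**
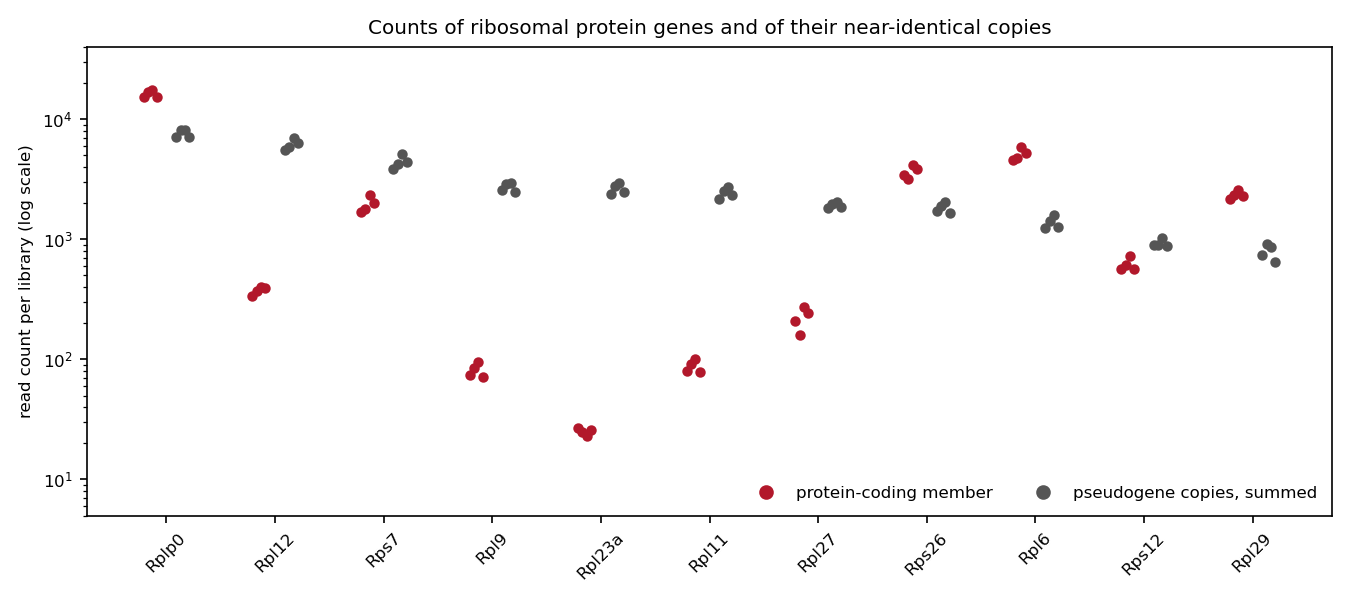
Read counts per library (vertical axis, log scale) of 11 ribosomal protein genes whose pseudogene copies had at least 500 reads on average, with the protein-coding gene in red and its copies summed in grey. The 4 points of each set are RANKL+DI 1 and 2 and RANKL+DMSO 1 and 2 from left to right. For Rpl12, Rps7, Rpl9, Rpl23a, Rpl11, Rpl27 and Rps12 the copies exceed the gene in every library.

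The log2 fold change followed the length of the coding sequence among members. Over the 83 tested members with an annotated coding sequence, Spearman's rho between coding length and log2 fold change was −0.56 and Pearson's r with log2 length −0.57, beside −0.13 and −0.090 over 11452 other tested genes. These are correlations across genes measured in the same 4 libraries, and genes are not independent replicates. Fitted values tended to lie above 0 in short members and below 0 in longer ones, and no member of any length was called higher. The 10 members with at most 300 coding bases all had fitted values above 0, with a median of 0.22, and the median was −0.015 for the 18 above that and up to 400 bases, −0.13 for the next 30, up to 600, −0.19 for the next 21, up to 900, and −0.16 for the 4 above 900.

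Other genes of these lengths were measured in the same libraries. Their median log2 fold change was 0.14 at up to 300 coding bases (218 genes), then 0.049 up to 400, 0.051 up to 600, 0.034 up to 900 and −0.012 above 900 (8456 genes). The 14 members that were lower had a median coding length of 651 bases, from 390 to 1257, and the 69 others one of 435 bases, from 138 to 951. The 14 also differed in level, with a median of 135 CPM (37.7 to 908). Tested members that were not called had a median of 62.9 CPM (1.27 to 909). The part of level in the calls was not tested.

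Libraries of the same group also differed by length. The log2 ratio of RANKL+DI library 2 over library 1 had a Spearman's rho of −0.27 with coding length over the members. That of RANKL+DMSO library 1 over library 2 had one of −0.28. Over the 68 members above 10 CPM these were −0.44 and −0.40, beside −0.58 between the groups. Which library is divided by which is arbitrary within a group and sets the sign of the ratio and of its rho, so only their size can be read. Members with at most 300 coding bases had a median log2 ratio of 0.18 between the RANKL+DI libraries and of 0.15 between the RANKL+DMSO libraries, against 0.22 between the groups. For members with over 600 and up to 900 bases the medians were −0.0031 and 0.021 within groups and −0.19 between them. The part of library-to-library differences by length in the result was not tested. With a smooth trend on whole mRNA length and level over all genes taken off, the median log2 fold change of the members was −0.17. Of 83 members, 68 were then below 0. Their rho with coding length, which was not itself in the trend, was −0.56.

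**Figure D4:**
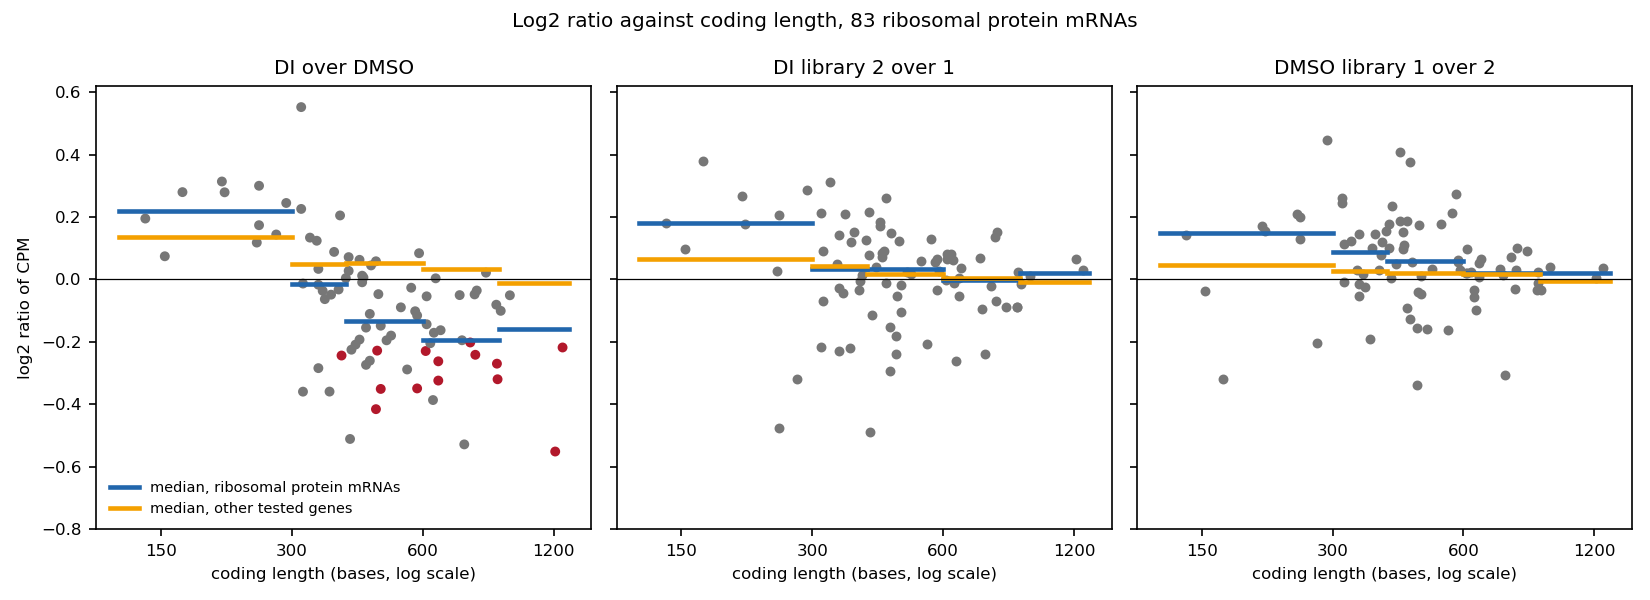
Log2 ratio of CPM (vertical axis) against coding length in bases (horizontal axis, log scale) for 83 ribosomal protein mRNAs, with RANKL+DI over RANKL+DMSO on the left and ratios between the 2 libraries of each group in the middle and on the right. Grey and red points are members not past and past the threshold, and lines are medians of members (blue) and other tested genes (orange) by length class. The left panel falls from a median of 0.22 to −0.19. The shortest class also lies away from 0 within both groups, on a side set by the order of the libraries.

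Other genes of the translation machinery were looked at from lists that do not depend on the name. Fau, which is made as a fusion with a ubiquitin-like protein, and Rack1, a scaffold on the 40S head, are ribosomal proteins with other names. Their log2 fold changes were −0.14 (SE 0.049, edgeR adjusted p = 0.12) and −0.010 (SE 0.099, adjusted p = 0.96), so neither passed the test. Both RANKL+DI libraries lay below both RANKL+DMSO libraries in Fau (87.9 and 89.3 CPM against 97.0 and 98.2 CPM), and the groups overlapped in Rack1.

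Elongation factors, many of whose mRNAs are also of the TOP class, were taken as a list of 8 genes. The list includes Eef2k, a kinase of Eef2, and Eef1e1, which are not elongation factors themselves. By edgeR's test 5 of the 8 (62.5%) were lower and 0 higher, beside 7.70% and 7.14% of all tested genes. Neither Eef2k nor Eef1e1 was called. The median log2 fold change of the list was −0.25 (0 higher at an unadjusted p under 0.05, and 4 lower by DESeq2 and 5 by limma-voom). Eef1a1, which brings aminoacyl-tRNA to the ribosome, gave 3391 and 3237 CPM with RANKL+DI and 4183 and 4071 CPM with RANKL+DMSO (log2 fold change −0.32, SE 0.036, edgeR adjusted p = 0.0041). Eef2, which moves the ribosome along the mRNA, gave 1976 and 1924 CPM against 2215 and 2181 CPM (log2 fold change −0.17, SE 0.032, edgeR adjusted p = 0.019). Eef1g (−0.36), Eef1b2 (−0.30) and Eef1d (−0.27), which recharge Eef1a1, were the others that fell.

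Of 16 other TOP mRNAs, 9 (56.25%) were lower and 0 higher by edgeR's test, beside 7.70% and 7.14% of all tested genes. At an unadjusted p under 0.05, 10 were lower and 0 higher. DESeq2 and limma-voom called 6 and 9 lower. The median log2 fold change of the list was −0.18. Hnrnpa1, a splicing regulator, had the lowest value (−0.52, SE 0.053, edgeR adjusted p = 0.0030), followed by Npm1 (−0.31), a nucleolar chaperone, and Pabpc1 (−0.31), the poly(A)-binding protein. Eif4b (−0.27), Eif3e (−0.24) and Ipo7 (−0.21) fell as well. Among 8 snoRNA host transcripts with a TOP start, 2 were lower, Gas5 (−0.39, edgeR adjusted p = 0.047) and Snhg12 (−0.60, adjusted p = 0.046), and 0 higher (4 lower and 0 higher at an unadjusted p under 0.05, and 1 lower by each of DESeq2 and limma-voom), with a median of −0.34. Whether these lists differ from the ribosomal proteins was not tested.

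Of 22 genes of mTORC1 signalling and of LARP1, 1 was higher (4.55%) and 2 lower (9.09%), beside 7.14% and 7.70% of all tested genes, and at an unadjusted p under 0.05 these counts were 3 and 6. Sesn2, a stress-induced inhibitor of mTORC1, was higher (28.6 and 29.9 CPM with RANKL+DMSO, 36.5 and 37.8 CPM with RANKL+DI, log2 fold change 0.34, SE 0.068, edgeR adjusted p = 0.024), and was called higher by limma-voom but not by DESeq2's Wald test, which called 0 of the 22 higher and 2 lower. Rptor, the subunit that recruits mTORC1 substrates (−0.26, edgeR adjusted p = 0.013), and Larp1 (−0.23, adjusted p = 0.035) were lower. With 1 library left out, Sesn2 was called in 0 of 4 cases (edgeR adjusted p from 0.054 to 0.12), Larp1 in 1 and Rptor in 2. Among 13 chaperones and nuclear carriers of ribosomal proteins, 5 were lower (38.5%) and 1 higher (7.69%), beside 7.70% and 7.14% of all tested genes. Rrs1, which brings the 5S particle into the large subunit, fell the most (−0.46, edgeR adjusted p = 0.0076). The importins Kpnb1 (−0.27), Ipo7 (−0.21, also one of the TOP genes above) and Ipo5 (−0.17) were lower too. So was Heatr3 (−0.30), which carries Rpl5. Aamp was higher (0.33, edgeR adjusted p = 0.016). With 1 library left out, Rrs1 and Kpnb1 were called in all 4 cases, Aamp in 2, Ipo7 in 1 and Heatr3 and Ipo5 in 0.

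**Figure D5:**
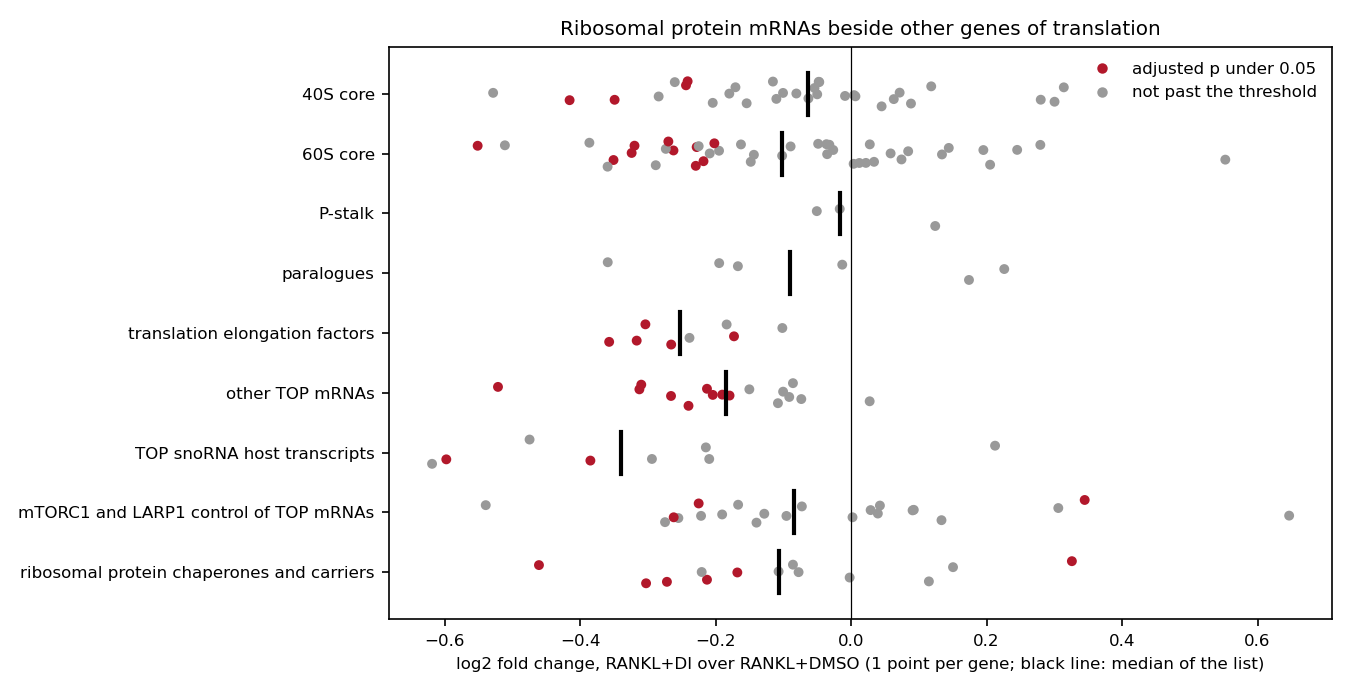
Log2 fold change, RANKL+DI over RANKL+DMSO (horizontal axis), of each tested gene in the ribosomal protein classes and in 5 other lists of translation genes (vertical axis), with red for an adjusted p under 0.05 and a black line at the median of each list. The medians of the 40S (−0.063) and 60S (−0.10) genes lie nearer to 0 than those of the elongation factor list (−0.25) and other TOP mRNAs (−0.18).

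The proteins of the mitochondrial ribosome, which translates the mRNAs of the mitochondrial genome, were set beside the cytosolic ones. Of 77 tested, 1 was higher and 1 lower (1.30% each), beside 7.14% and 7.70% of all tested genes. The median log2 fold change was −0.059, close to the −0.063 of the cytosolic members. Both DI libraries lay below both DMSO libraries in 32 (41.6%) and above them in 8 (10.4%), beside 29.6% and 29.0% of all tested genes. The 2 families thus had a like median, while the 14 calls among cytosolic members stood beside 2 in the mitochondrial family. No test of the difference between the families was made.

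The number of calls depended on single libraries and on the scaling. It was 7 without RANKL+DI library 2, 5 without RANKL+DMSO library 1 and 8 without RANKL+DMSO library 2, and Rpl3, Rpl4, Rps7 and Rpl13a were lower whichever library was left out. Without RANKL+DI library 1 it was 12 lower and 3 higher, the latter being Rpl37rt (0.41), Rpl41 (0.28) and Rps28 (0.44). With library size only in place of TMM factors, 27 members were lower and 0 higher, but the median of all genes then moved to −0.10, 4.35% of all genes were higher and 15.4% lower, and the median of the members was −0.17.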

How the data were processed

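RNA was sequenced from 2 RANKL+DI and 2 RANKL+DMSO libraries of BMMs, grouped by their labels. The authors deposited raw read counts per gene and FPKM values per gene and library in one table, and a second deposited table repeats them with annotation and was not used. The submitters' processing notes name GRCm38 and mm10, and the aligner and the counting program are not given in the sources used here.

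Counts were tested in R 4.3.3 with edgeR 4.0.16 (TMM factors, default filter on low counts, quasi-likelihood test of DI against DMSO with no covariate, Benjamini-Hochberg adjustment over 12590 genes), after the script had been tested on simulated data. Depth was 16085692 to 19403480 counts per library. The SE of a fitted value was its size over the root of F. Copies were searched with BLAST+ 2.17.0 in GENCODE M21 transcripts. Of the deposited identifiers, 34344 were in GENCODE M21. Lengths are those of the transcript with the longest coding sequence, and the length trend was taken on its whole mRNA length.

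Alternatives were DESeq2 1.42.0 (size factors and Wald test), upper quartile factors, library size only, no filter, at least 10 counts in every library, limma-voom and limma 3.58.1 on log2(FPKM + 1) of genes with a mean FPKM of at least 0.1, the replicate number as a block, each library left out, copies added and a length and level trend removed. Named were all called members, the 3 highest and 3 lowest core members by FPKM, the P-stalk, paralogues with partners, Rpl5, Rpl11, Rps6 and Rps19, and up to 6 called genes of each other list. The lists were the 40S, 60S, P-stalk and paralogue classes, other ribosomal proteins, elongation factors, other TOP mRNAs, snoRNA hosts, mTORC1 and LARP1, chaperones and carriers, S6 kinases, RNA polymerase I, p53 targets and markers of macrophages and 7 other cell types. The members and lists were chosen with earlier results of these data known. Some genes that the rules include are not reported here.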

Additional observations from a re-analysis of the deposited data

How the results depend on the processing

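The 14 calls, all lower with RANKL+DI, became 27 (all lower) with library size only and 27 (all lower) with limma on log2(FPKM + 1). Leaving out 1 library each time gave 5 to 15 calls, 5 to 12 of them lower and 0 to 3 higher, where 3 were higher only without RANKL+DI library 1. Without a RANKL+DI or RANKL+DMSO library the lone library of that group is assumed to vary like the other group. The median log2 fold change of the members was −0.063, and was −0.17 with the length and level trend removed, −0.17 with library size only, −0.15 with limma on log2(FPKM + 1), and −0.11 to −0.056 with 1 library left out. The log2 ratio of the summed level was −0.085, −0.19 with library size only, −0.17 on summed FPKM (added after the data were seen), and −0.11 to −0.062 with 1 library left out. Members with both RANKL+DI libraries above both RANKL+DMSO libraries numbered 9, 3 with library size only, and 12 to 27 with 1 library left out, where a lone library separates more easily. With the replicate number as a block, 11 members were called, without Rpl24, Rps15a and Rps27a. Across genes, the deviations of same-numbered libraries had a correlation of −0.026. A single correlation cannot show whether the numbers pair the libraries, and the labels do not say. Over the named members, 416 values kept direction and side of the threshold, 30 kept the direction without passing it and 11 passed where they had not. A further 19 had the opposite sign, none of them called in either setting. These were, with library size only, Rpl10 (−0.10), Rpl39 (−0.029) and Rpl7 (−0.082), with limma on log2(FPKM + 1), Rpl10 (−0.091), Rpl39 (−0.029) and Rpl7 (−0.081), and Rpl10 with limma-voom (−0.0033) and upper quartile factors (−0.0045). With 1 library left out, the sign changed in 1 or 2 of the 4 cases for Rpl10 (−0.13 to 0.13), Rpl11 (−0.17 to 0.0042), Rpl36al (−0.068 to 0.045), Rpl7 (−0.022 to 0.067), Rpl9 (−0.23 to 0.044), Rplp2 (−0.086 to 0.057), Rps4l (−0.45 to 0.085) and Rps4x (−0.11 to 0.020). Among the 14, Rpl5 missed the threshold in DESeq2's Wald test. Rpl5 and Rpl10a also missed it whichever library was left out. Over all settings their log2 fold changes ran from −0.42 to −0.31 for Rpl5 and from −0.37 to −0.24 for Rpl10a. Depth limits members under about 10 CPM, such as Rps6, Rpl11 and Rpl36.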

Other observations

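The S6 kinases share the Rps6k prefix but are no part of the ribosome; they phosphorylate Rps6 or act in MAPK signalling. Of 8 tested, 2 were higher with RANKL+DI and 0 lower. Rps6ka3, which encodes RSK2, was measured at 220 and 198 CPM with RANKL+DI and at 104 and 100 CPM with RANKL+DMSO, a log2 fold change of 1.04 (SE 0.062, edgeR adjusted p = 0.00065), larger than that of any ribosomal protein mRNA. Rps6kc1 followed (0.43, SE 0.082, adjusted p = 0.020). At an unadjusted p under 0.05, 1 was lower, and DESeq2 and limma-voom each called 2 higher and 0 lower.

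RNA polymerase I makes the rRNA that ribosomal proteins bind. Of 14 genes of the polymerase and its factors, 4 (28.6%) were lower and 0 higher by edgeR's test. The shares over all tested genes were 7.70% and 7.14%. The 4 were Polr1b (−0.44), Taf1d (−0.42), Polr1a (−0.37) and Ubtf (−0.19). At an unadjusted p under 0.05, 0 were higher, and DESeq2 and limma-voom called 3 and 4 lower. Of 15 p53 targets, 6 were higher and 0 lower (1 lower at an unadjusted p under 0.05, and 6 higher by each of DESeq2 and limma-voom), with a median log2 fold change of 0.23. Phlda3 (0.53), Trp53inp1 (0.51), Zmat3 (0.43), Cdkn1a (0.35), Plk2 (0.24) and Ccng1 (0.23) were these, and Rps27l, itself known as such a target, is described above with the paralogues.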
